A study of Mus musculus with 8 samples.

Results

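Deletion of Wls in the epithelium was followed at E11.5 (days of embryonic development) in 4 libraries of whole dissected mouse trachea, of 8 in the whole series, made with a kit that does not keep the strand of the RNA. They were taken by the stage and genotype in their labels: 2 carried the genotype WlsShhCre and are called mutants here, and 2 were controls. The other 4 libraries, 2 mutants and 2 controls at E13.5, entered the fit to share its estimate of spread and served for a comparison of stages. The labels do not list the alleles behind either genotype, the strain, whether the controls carried Cre, or whether a library came from 1 embryo or from a pool, so p-values measure the spread between these samples, which may be technical.

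Wnt ligands are lipid-modified signalling proteins. The enzyme Porcn attaches the lipid, and Wls, a cargo receptor that spans the membrane, carries the finished ligand to the cell surface, so a cell without Wls makes Wnt but does not release it. In the receiving cell the signal stabilises beta-catenin, which joins DNA-binding proteins of the TCF/LEF family and switches on target genes, many of them feedback inhibitors of the pathway. Shh-Cre is active in the epithelial lining of the developing trachea, and in the mouse the Wnt ligands of that epithelium are known to be needed by the surrounding mesenchyme, the tissue that will form cartilage rings in front and smooth muscle behind. The comparison asks what had changed in the whole tracheal wall at E11.5, before cartilage is visible.

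The E11.5 libraries held 9.90 and 11.4 M estimated counts in the mutants and 10.96 and 11.9 M in the controls. Levels are given below as CPM, the counts of a gene in each 1 M counts of its library. Genes that mark the tissue were present in all 4 libraries: Nkx2-1, the transcription factor of airway epithelium, had 62.3 and 74.4 CPM in mutants and 60.5 and 52.2 CPM in controls, and the epithelial adhesion gene Epcam had 79.5 and 82.1 CPM in mutants and 75.5 and 64.0 CPM in controls. Xist, the transcript of the inactive X chromosome, was lower in both mutants (846 and 526 CPM) than in both controls (1168 and 1847 CPM), and the Y-linked Ddx3y was higher (52.2 and 61.8 CPM in mutants, 43.2 and 32.8 CPM in controls). Each of the 4 libraries held both transcripts in quantity, so each held RNA of both sexes and thus of more than 1 animal. How many is not given in the labels. Genotype and the mix of sexes cannot be told apart in these libraries. Of the 54 genes called below 1 lies on the X chromosome and 0 on the Y. Control replicate 1 stood apart in a few genes, among them the immediate early gene Fos (6.11 and 7.85 CPM in mutants, 53.4 and 7.98 CPM in controls).

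Of 14901 genes tested at E11.5, 43 were lower and 11 were higher in the mutant tracheae, so that 0.289% and 0.0738% of all genes passed in the 2 directions and 0.362% in all. Called here means an edgeR p-value, corrected over all tested genes, under 0.05. Of the called genes 14 were at least 2-fold lower and 1 was at least 2-fold higher. Every one of the 54 had both mutants on the same side of both controls, a pattern that 17.9% of all genes showed on the lower side and 18.1% on the higher side. Among the 1123 genes with an unadjusted p under 0.05, which are 7.54% of those tested, 558 were lower and 565 were higher, and the median of all genes was 0 on the log2 scale. Lower genes outnumbered higher ones among the called genes and did not among those with an unadjusted p under 0.05. Each count of list members below is to be read beside these shares of all genes.

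**Figure D1:**
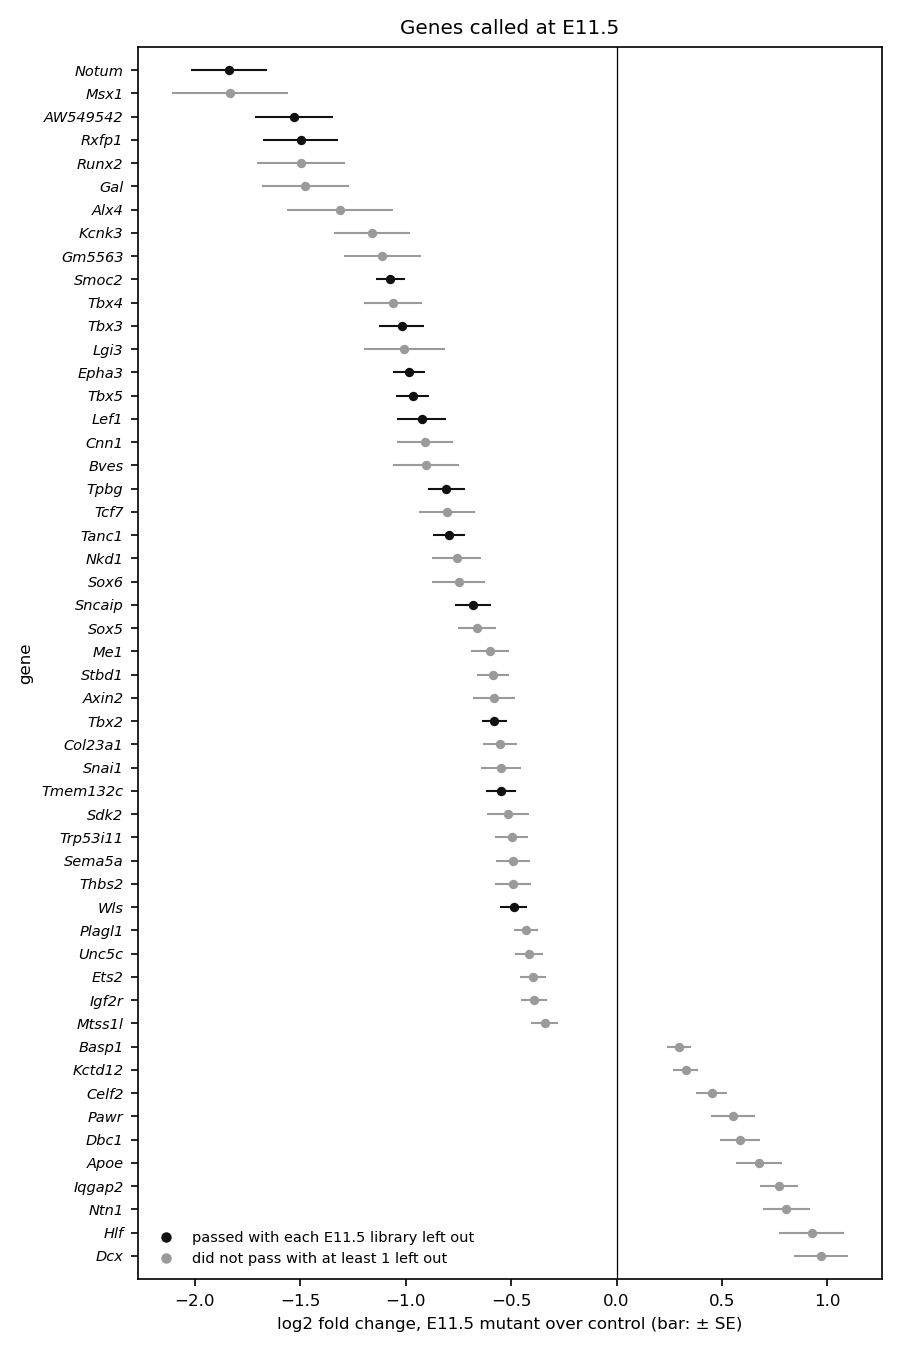
A plot of 52 genes called at E11.5, ordered by log2 fold change of mutant over control (points) with the standard error (bars). The 42 lower genes drawn reach from -1.84 for Notum to -0.34 for Mtss1l and the 10 higher genes from 0.30 for Basp1 to 0.97 for Dcx, and black points mark the 14 genes that passed with each of the 4 E11.5 libraries left out in turn.

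The calls depended on single libraries. Leaving out each E11.5 library in turn, 15 of the 54 passed every time, among them the lower genes Notum, AW549542, Rxfp1, Smoc2, Tbx3, Epha3, Tbx5, Lef1, Tpbg, Tanc1, Sncaip, Tbx2, Tmem132c and Wls. Another 12 passed in no such fit. Without control replicate 1 the counts were 2 higher and 18 lower, and without control replicate 2 they were 4 and 46. Without mutant replicate 1 they were 5 and 32, and without mutant replicate 2 they were 49 and 20, where 42 of the higher genes had not been called on all libraries. DESeq2 called 29 higher and 66 lower genes (0.195% and 0.443% of those tested, 0.638% in all) and 52 of the 54 among them. The method limma-voom called 3 and 26 (0.0201% and 0.174%, 0.195% in all), 28 of them among the 54. Those it did not call, with adjusted p from 0.0532 to 0.241, include AW549542, Alx4, Kcnk3, Lgi3, Cnn1, Tcf7, Nkd1, Sox6, Me1, Axin2, Snai1, Sdk2, Trp53i11, Sema5a, Thbs2, Unc5c and Mtss1l among the lower genes and Basp1, Kctd12, Celf2, Pawr, Dbc1, Apoe, Ntn1 and Hlf among the higher. DESeq2 did not call Sdk2 (adjusted p = 0.160) or Pawr (0.123). A fit on the 4 E11.5 libraries alone called 37 and 83 (0.262% and 0.587% of the genes it tested, 0.848% in all), which held all 54. The estimated biological coefficient of variation was 5.68% in those 4 libraries and 7.79% over all 8.

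**Figure D2:**
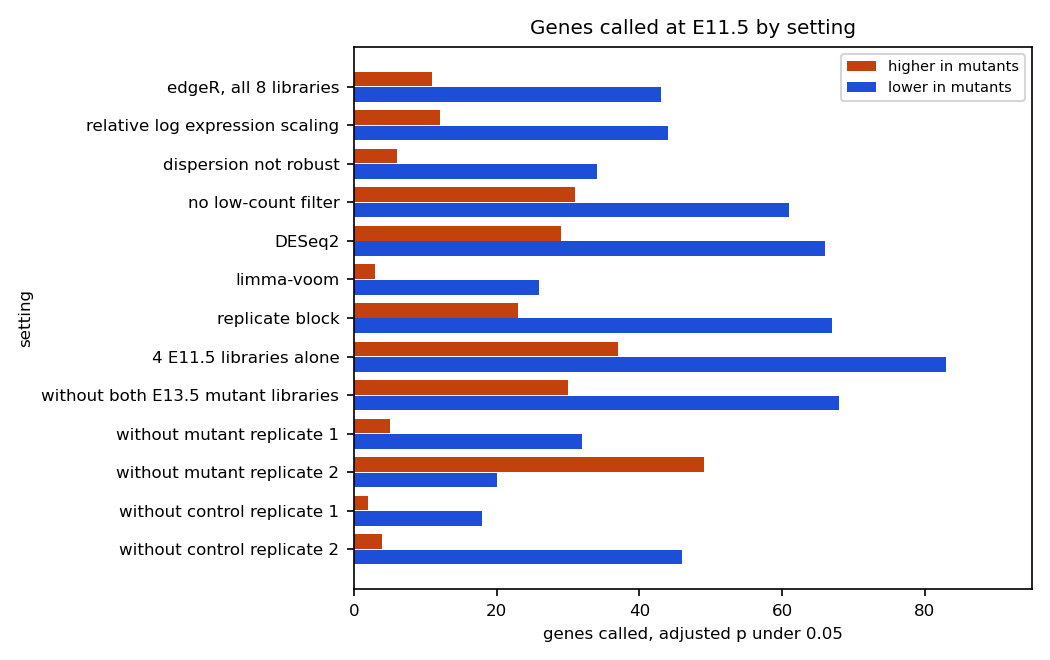
Number of genes called higher (orange) and lower (blue) in E11.5 mutants under each way of fitting, on a linear axis from 0. Lower genes outnumbered higher genes under each setting drawn other than the fit without mutant replicate 2, where 49 were higher and 20 lower.

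Wls itself was lower in both mutants, at 118 and 109 CPM against 155 and 164 CPM in controls, or 114 ± 6.26 against 160 ± 6.67 CPM (SD, n = 2 each). The fitted log2 fold change of Wls came to -0.49 (SE 0.06, adjusted p = 0.00302), or 0.713 of the control level, and the 2 groups did not overlap. In whole trachea fewer cells of a type and less RNA per cell cannot be told apart, which holds for each level given here. Porcn had 8.35 and 10.6 CPM in mutants and 9.21 and 8.75 CPM in controls, with overlapping groups (0.08, SE 0.17, adjusted p = 0.983). Shh, whose locus carries the Cre, had 11.6 and 20.1 CPM in mutants and 17.3 and 18.4 CPM in controls (-0.16, SE 0.21, adjusted p = 0.963).

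Transcripts of the Wnt ligands were present and 0 of the 9 tested passed in edgeR, DESeq2 or limma-voom, with 1 at an unadjusted p under 0.05. Per kilobase of gene model, in the deposited RPKM, Wnt5a was the most abundant at 37.2 and 33.5 in mutants and 34.1 and 37.2 in controls. Wnt7b, which airway epithelium makes, came next with 23.8 and 27.4 RPKM in mutants and 24.2 and 23.1 RPKM in controls. Wnt11 followed with 11.4 to 12.1 RPKM over the 4 libraries, and Wnt2b with 9.45 and 9.92 RPKM in mutants and 8.63 and 8.09 RPKM in controls. Wnt2b and Wnt2, at 8.66 and 9.09 RPKM in mutants and 8.46 and 6.28 RPKM in controls, are neighbours in this order whose ranges overlapped. Wnt4 was the ligand with the unadjusted p under 0.05, at 3.16 and 4.85 CPM in mutants and 2.12 and 1.63 CPM in controls (1.11, SE 0.25, adjusted p = 0.108). The remaining ligands had log2 values of 0.03 for Wnt5b, 0.80 for Wnt6 and 0.21 for Wnt9a, and the list's median was 0.20.

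Receptors and the intracellular pathway likewise gave no call, where 0.362% of all genes had one. Of 18 receptors and co-receptors edgeR, DESeq2 and limma-voom called 0, with 3 at an unadjusted p under 0.05, all lower, and a median of -0.06 (-0.11 without control replicate 1). Of 28 genes of Wnt secretion and the intracellular pathway they called 0, with 6 at an unadjusted p under 0.05 and a median of 0.00. Among 14 modulators outside the cell 1 was called, Tpbg, a membrane glycoprotein known in zebrafish as an inhibitor of Wnt signalling. Tpbg had 37.5 and 36.9 CPM in mutants and 70.1 and 60.1 CPM in controls (-0.81, SE 0.09, adjusted p = 0.000955), and it passed with each E11.5 library left out. The secreted antagonist Sfrp1 had 331 and 306 CPM in mutants and 241 and 258 CPM in controls (0.35, SE 0.11, adjusted p = 0.430), and the secreted agonist Rspo2 had 149 and 129 CPM in mutants and 101 and 91.5 CPM in controls (0.52, SE 0.15, adjusted p = 0.354). Both were called higher by DESeq2 (adjusted p = 0.0474 and 0.0144) and on the 4 E11.5 libraries alone (0.0141 and 0.00436), and were named here after their values were seen.

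A set of 5 target genes of Wnt/beta-catenin signalling were lower in the mutants. Of 24 tested targets 5 fell, 0 rose and 19 did not pass, where 0.362% of all genes were called. The list's median was -0.12 against 0 for all genes, with 16 members below 0 and 8 above. At an unadjusted p under 0.05 were 10, all of them lower, where 7.54% of all genes had such a p. Notum, a secreted enzyme that strips the lipid from Wnt ligands, had 6.01 and 8.20 CPM in mutants and 29.0 and 22.2 CPM in controls. The fitted level was 3.58-fold lower in mutants (-1.84, SE 0.18, adjusted p = 0.000356). Lef1, one of the DNA-binding partners of beta-catenin, had 15.9 and 15.7 CPM in mutants and 29.1 and 30.8 CPM in controls (-0.92, SE 0.12, adjusted p = 0.00283). For both genes the gap between the groups was wider than the spread within either, and both passed with each library left out.

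The other 3 targets passed in edgeR and DESeq2 but not in limma-voom (adjusted p = 0.0532 for Tcf7, 0.0702 for Nkd1 and 0.0672 for Axin2). Tcf7, a second partner of beta-catenin, had 20.6 and 20.9 CPM in mutants and 39.0 and 33.5 CPM in controls (-0.81, SE 0.13, adjusted p = 0.0147). Nkd1, which binds Dishevelled and damps the signal, had 29.9 and 29.1 CPM in mutants and 55.8 and 44.1 CPM in controls (-0.76, SE 0.12, adjusted p = 0.0124). Axin2, a scaffold of the complex that destroys beta-catenin, had 34.9 and 29.9 CPM in mutants and 50.3 and 46.5 CPM in controls (-0.58, SE 0.10, adjusted p = 0.0204). In all of them both mutants lay below both controls. Adjusted p on leaving out control replicate 1 was 0.247 for Tcf7, 0.130 for Nkd1 and 0.259 for Axin2. Without mutant replicate 1 it was 0.133 for Tcf7 and 0.132 for Nkd1, without mutant replicate 2 it was 0.0946 for Tcf7, 0.126 for Nkd1 and 0.156 for Axin2, and without control replicate 2 it was 0.0720 for Axin2. Tnfrsf19, a receptor gene named after its values were seen, had 92.7 and 84.0 CPM in mutants and 183 and 165 CPM in controls (-0.98, SE 0.15) and did not pass in edgeR (adjusted p = 0.102), but it was called by DESeq2 (7.04e-14), by limma-voom (0.0280) and on the 4 E11.5 libraries alone (1.21e-05). Wif1, a secreted Wnt inhibitor also named after its values were seen, had 0.814 and 0.617 CPM in mutants and 21.4 and 2.32 CPM in controls (-4.02, SE 1.65, adjusted p = 0.728), was called by DESeq2 alone of these tools (0.0370), and control replicate 1 stood far above the other 3 libraries.

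Because these targets answer to TCF/LEF proteins, their promoters were searched for the core of the TCF/LEF motif, CTTTGA, on both strands (TCAAAG on the other). The RefSeq promoter windows of build GRCm38.p6 hold 300 bases, 250 before and 50 after a transcription start. Windows were found for 4 of the 5 called targets, and for Notum none was. In all mouse windows 16% (5257 of 32851) hold the motif. Neither the single Axin2 window, chr11:108920099-108920398 on the plus strand, nor those of Tcf7 and Nkd1 hold it. Of the 4 Lef1 windows 1 does: the first start, chr3:131110047-131110346, has no match, and an internal start, chr3:131156044-131156343, has 2. Both windows are printed on the plus strand, and both matches read TCAAAG there. The Axin2 and Lef1 sequences are printed 5' to 3', with the motif in capitals, because these are the targets with the best known feedback role and the only one with a match. A match is a description of letters and not a binding site. Among the 29 lower genes with a window, 4 hold the motif in at least 1. This count is per gene over all of its windows, and the 16% is per window, so they cannot be set side by side. The share per gene was not computed for all genes.
Axin2: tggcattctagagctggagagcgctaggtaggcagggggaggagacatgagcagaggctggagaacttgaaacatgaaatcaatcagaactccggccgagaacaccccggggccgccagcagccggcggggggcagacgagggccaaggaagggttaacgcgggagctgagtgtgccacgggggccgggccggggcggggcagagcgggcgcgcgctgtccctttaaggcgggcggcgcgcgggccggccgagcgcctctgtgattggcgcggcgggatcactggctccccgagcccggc
Lef1, first start: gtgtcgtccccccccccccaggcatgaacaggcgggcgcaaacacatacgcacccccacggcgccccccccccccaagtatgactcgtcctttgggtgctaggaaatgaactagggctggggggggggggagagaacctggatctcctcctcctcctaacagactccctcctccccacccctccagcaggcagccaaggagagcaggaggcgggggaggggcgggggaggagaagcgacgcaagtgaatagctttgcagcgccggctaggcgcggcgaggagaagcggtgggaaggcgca
Lef1, internal start: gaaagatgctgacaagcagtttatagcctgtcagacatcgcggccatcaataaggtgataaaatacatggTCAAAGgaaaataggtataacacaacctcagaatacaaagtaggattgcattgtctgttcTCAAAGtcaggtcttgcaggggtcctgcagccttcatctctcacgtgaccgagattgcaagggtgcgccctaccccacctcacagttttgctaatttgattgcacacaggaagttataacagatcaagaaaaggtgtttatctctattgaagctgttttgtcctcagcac

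**Figure D3:**
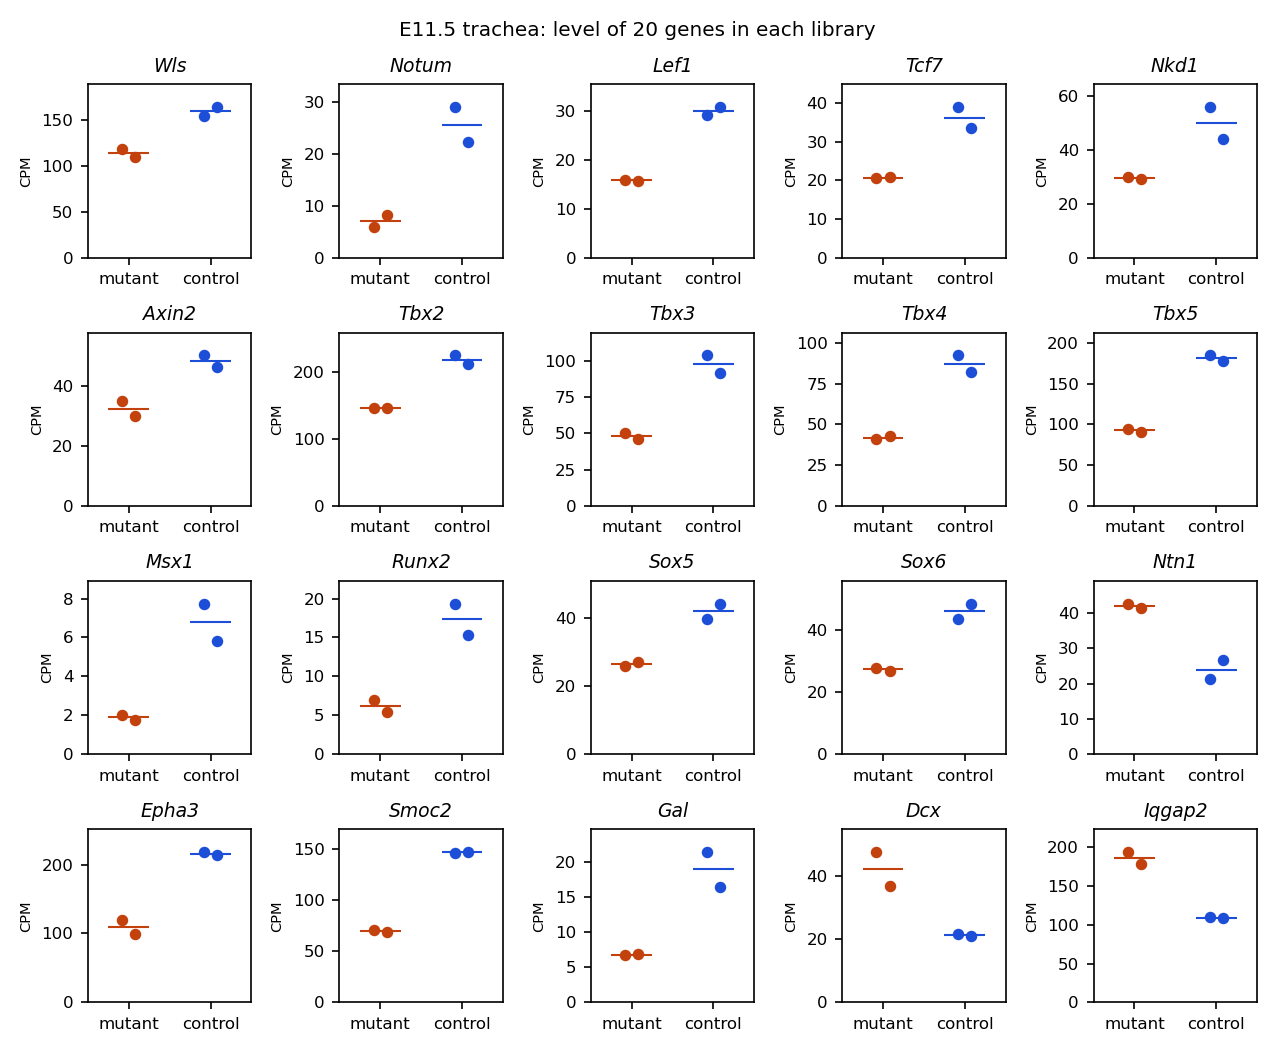
Level in CPM (vertical axes from 0) of 20 called genes in each E11.5 library, mutants on the left in orange and controls on the right in blue, with a bar at the group mean. In each panel the 2 mutant points lie on the same side of both control points, below them for the panels from Wls to Sox6, Epha3, Smoc2 and Gal and above them for Ntn1, Dcx and Iqgap2.

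The T-box transcription factors of lung and tracheal mesenchyme held 4 lower genes. Of 11 tested T-box genes 4 fell, 0 rose and 7 did not pass, where 0.362% of all genes were called. The list's median was -0.58 over all libraries and -0.35 without control replicate 1. At an unadjusted p under 0.05 there were also 2 members above 0, Tbx1 (0.51, adjusted p = 0.0756) and Tbx15 (1.63, adjusted p = 0.525), named after their values were seen. Per kilobase, Tbx2 was the most abundant at 40.7 and 40.5 RPKM in mutants and 62.4 and 58.1 RPKM in controls, followed by Tbx5 at 23.9 and 22.8 RPKM in mutants and 46.5 and 44.3 RPKM in controls. Tbx5, an activator also known from heart and forelimb, had 94.98 and 90.7 CPM in mutants and 185 and 178 CPM in controls (-0.97, SE 0.08, adjusted p = 7.00e-05). Tbx4, its relative of hindlimb and lung, had 40.8 and 42.8 CPM in mutants and 92.4 and 82.0 CPM in controls (-1.06, SE 0.14, adjusted p = 0.0156). The fitted mutant level was 0.511 of the control level for Tbx5 and 0.480 for Tbx4. Tbx3, a repressor, had 50.2 and 46.2 CPM in mutants and 104 and 91.5 CPM in controls (-1.02, SE 0.11, adjusted p = 0.00274). Tbx2, the other repressor, had 146 and 145 CPM in mutants and 224 and 211 CPM in controls (-0.58, SE 0.06, adjusted p = 0.000421). All 4 had groups that did not overlap. Tbx2, Tbx3 and Tbx5 passed with each library left out, whereas Tbx4 had 0.130 (adjusted p) on leaving out control replicate 1, and 0.240 and 0.167 on leaving out mutant replicates 1 and 2.

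These 4 genes lie in 2 neighbouring pairs, and beside Tbx3 and Tbx5 a pair of noncoding genes was also lower. In the RefSeq annotation of GRCm38.p6, used here for gene order only, Tbx3 and Tbx5 are adjacent protein-coding genes on chromosome 5, with the long noncoding RNA gene AW549542 next to Tbx3 and Gm5563 inside the span of Tbx5. All 4 were lower, and they were the 4 genes tested of 23 annotated between the flanking protein-coding genes. AW549542 had 4.38 and 4.85 CPM in mutants and 14.0 and 12.8 CPM in controls (-1.53, SE 0.19, adjusted p = 0.00237) and passed with each library left out, but not in limma-voom (adjusted p = 0.0676). Gm5563 had 7.84 and 6.88 CPM in mutants and 16.4 and 15.4 CPM in controls (-1.11, SE 0.18, adjusted p = 0.0148), but its adjusted p lay between 0.0731 and 0.192 with each library left out in turn. Since the library kit does not mark the strand, reads of Gm5563 and of Tbx5 cannot be fully told apart. The flanking genes stood near 0, with log2 values of -0.12 for Med13l (adjusted p = 0.906) and -0.08 for Rbm19 (adjusted p = 0.926).

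Tbx2 and Tbx4 are likewise adjacent, on chromosome 11. Their flanking protein-coding genes had log2 values of -0.16 for Bcas3 (adjusted p = 0.829) and -0.06 for Brip1 (adjusted p = 0.949). The matrix genes Smoc2 and Thbs2, both lower and described below, are adjacent protein-coding genes on chromosome 17. In all, 7 pairs of called genes had at most 5 protein-coding starts between them, each pair made of lower genes: besides those above, Trp53i11 and Alx4 on chromosome 2, with 2 genes between, and Tpbg and Me1 on chromosome 9, with 4. The order was looked up after the calls were seen and was not tested against chance.

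Transcription factors of skeletal patterning were also lower in part. Of 18 tested, 3 fell, 0 rose and 15 did not pass, with a median of -0.16, where 0.362% of all genes were called. The list went both ways, with 10 members below 0 and 8 above. At an unadjusted p under 0.05 were 10, of which 6 were lower and 4 higher, where 7.54% of all genes had such a p. Both mutants lay below both controls in 8 and above them in 6, patterns that 17.9% and 18.1% of all genes showed. The called genes are described here. Runx2, the factor that commits cells to bone, had 6.92 and 5.38 CPM in mutants and 19.3 and 15.3 CPM in controls (-1.5, SE 0.21, adjusted p = 0.00476). Msx1, a homeobox repressor that BMP signals induce, had 2.04 and 1.76 CPM in mutants and 7.74 and 5.83 CPM in controls (-1.83, SE 0.28, adjusted p = 0.00890). These are low levels, 20 estimated counts in each mutant library. Alx4, a paired-type homeobox factor of skull and limb, had 4.99 and 3.97 CPM in mutants and 8.48 and 13.6 CPM in controls (-1.31, SE 0.25, adjusted p = 0.0429). Snai1, a zinc-finger repressor of epithelial genes that is on none of the lists, had 42.0 and 50.4 CPM in mutants and 69.9 and 65.6 CPM in controls (-0.55, SE 0.09, adjusted p = 0.0204). Groups did not overlap in any of them, but none passed with each library left out. Adjusted p on leaving out control replicate 1 was 0.0999 for Runx2, 0.134 for Msx1 and 0.277 for Snai1. Without control replicate 2 it was 0.392 for Alx4 and 0.0898 for Snai1. Without mutant replicate 1 it was 0.0560 for Msx1, 0.127 for Alx4 and 0.177 for Snai1, and without mutant replicate 2 it was 0.0579 for Runx2, 0.0761 for Msx1 and 0.233 for Alx4.

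Of the BMP pathway itself edgeR, DESeq2 and limma-voom called 0 of 23 ligands, receptors and response genes. At an unadjusted p under 0.05 were 6, all lower, where 7.54% of all genes had such a p. The list's median was -0.06 (-0.10 without control replicate 1). Bmp4, the ligand of tracheal mesenchyme, had 25.9 and 26.5 CPM in mutants and 33.9 and 37.0 CPM in controls, with groups apart (-0.44, SE 0.10, adjusted p = 0.123), and was called on the 4 E11.5 libraries alone (adjusted p = 0.0480). Among 35 transcription factors of foregut mesenchyme edgeR and limma-voom called 0, DESeq2 called 1 as higher and the fit on the 4 E11.5 libraries alone called 3 as lower, with 12 at an unadjusted p under 0.05, of which 5 were lower and 7 higher.

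Early regulators of cartilage were lower, and its matrix genes did not pass. Of 24 cartilage genes 2 fell, 0 rose and 22 did not pass, where 0.362% of all genes were called. The list's median was -0.55, with 21 members below 0. Sox5, summed over 2 entries of the table, had 25.9 and 27.1 CPM in mutants and 39.6 and 44.2 CPM in controls (-0.66, SE 0.09, adjusted p = 0.00457). Sox6 had 27.9 and 26.8 CPM in mutants and 43.4 and 48.5 CPM in controls (-0.75, SE 0.13, adjusted p = 0.0318). The proteins of both work as partners of Sox9, the factor that starts cartilage formation. Sox9 had 95.2 and 84.5 CPM in mutants and 117 and 138 CPM in controls, groups that did not overlap (-0.50, SE 0.15, adjusted p = 0.425). Without control replicate 2 and without mutant replicate 1 Sox5 had an adjusted p of 0.0565 and 0.0530, and Sox6 lay between 0.114 and 0.223 with each library left out.

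None of the cartilage matrix genes was called. Of all 24 cartilage genes 21 lay below 0 and 3 above, and in 13 both mutants lay below both controls, with the reverse in 0. Over all genes these patterns were found in 17.9% and 18.1%. The 3 above 0, named after their values were seen, were Matn3 (0.39, SE 0.47), Epyc (0.29, SE 0.67) and Cilp2 (0.17, SE 0.35), with adjusted p = 0.955, 0.986 and 0.982. Col2a1, the main cartilage collagen, had 334 and 316 CPM in mutants and 384 and 453 CPM in controls (-0.37, SE 0.30, adjusted p = 0.919). Col9a2 had 27.2 and 29.0 CPM in mutants and 52.3 and 50.5 CPM in controls (-0.87, SE 0.25, adjusted p = 0.484), and Col9a3 had 10.8 and 14.0 CPM in mutants and 36.9 and 30.1 CPM in controls (-1.42, SE 0.48, adjusted p = 0.610). These chains of collagen IX, which coats cartilage fibrils, were named after their values were seen. The fit over all 8 libraries gave them large standard errors, and all 4 of Sox9, Col2a1, Col9a2 and Col9a3 were called on the 4 E11.5 libraries alone (adjusted p = 0.0107, 0.0406, 0.000159 and 0.000244). DESeq2 called Sox9 (0.0113), Col9a2 (0.0433) and Col9a3 (0.0330), but not Col2a1. Of the 24 cartilage genes, 7 were called lower and 0 higher on the E11.5 libraries alone.

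**Figure D4:**
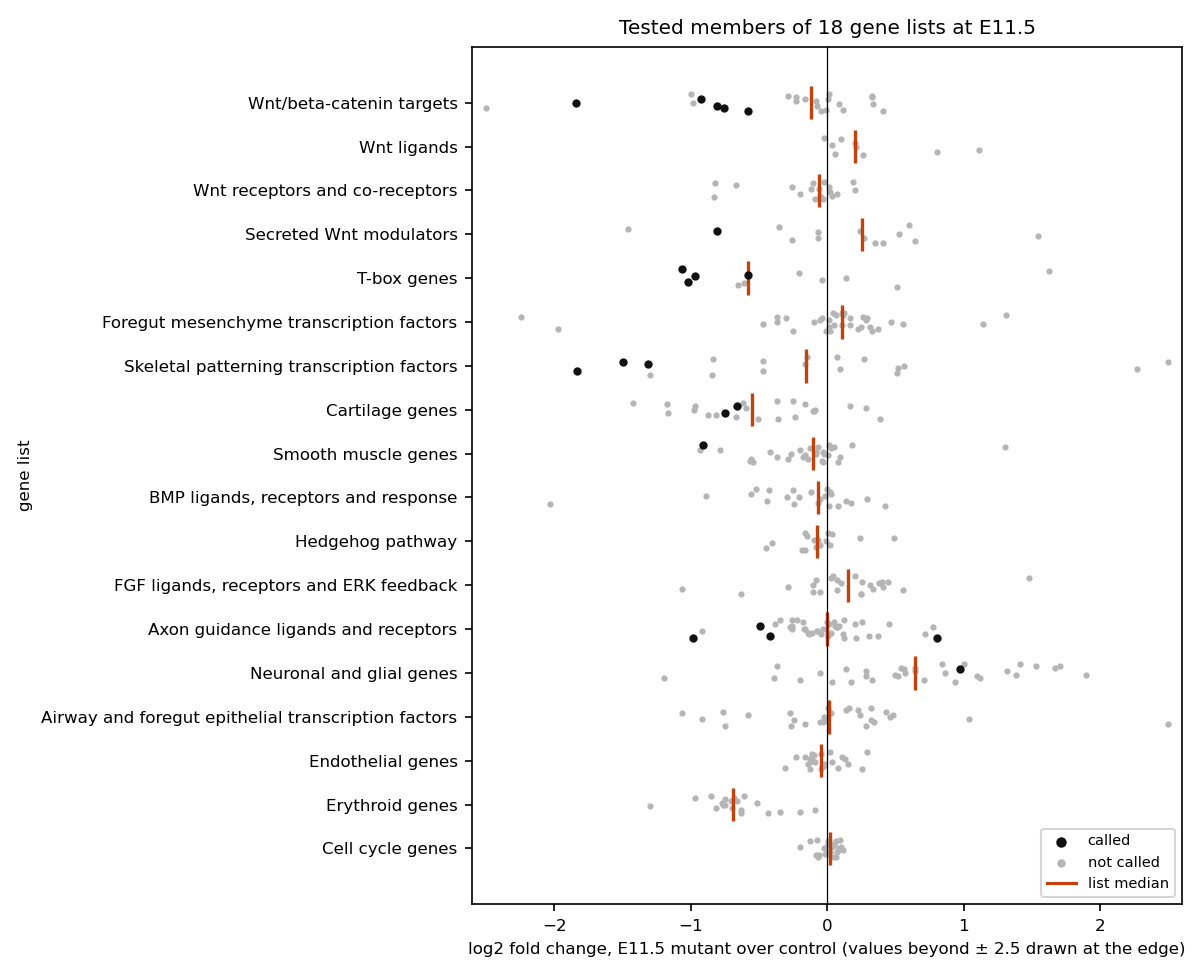
Log2 fold change at E11.5, mutant over control, of each tested member of 18 gene lists (grey, not called, and black, called), with the list median as an orange line. The called members lie below 0 other than Ntn1 in the axon guidance list and Dcx in the neuronal list, and the medians reach from -0.69 for erythroid genes to 0.64 for neuronal and glial genes.

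Matrix genes outside cartilage moved singly. Smoc2, a secreted calcium-binding matrix protein listed here among BMP antagonists, had the smallest p of all genes, with 71.3 and 68.7 CPM in mutants and 147 and 148 CPM in controls (-1.07, SE 0.07, adjusted p = 9.02e-06). It was the 1 gene called of 15 secreted BMP antagonists. Thbs2, a thrombospondin of connective tissue, was the 1 gene called of 35 elastic fibre and matricellular genes, with 34.6 and 31.9 CPM in mutants and 48.1 and 45.4 CPM in controls (-0.49, SE 0.09, adjusted p = 0.0204). Col23a1, a collagen anchored in the cell membrane, was the 1 chain called of 29, with 84.8 and 80.6 CPM in mutants and 119 and 123 CPM in controls (-0.55, SE 0.08, adjusted p = 0.00790). With each library left out the adjusted p lay between 0.0560 and 0.224 for Thbs2 and between 0.0560 and 0.0783 for Col23a1. Of 29 matrix proteases and inhibitors edgeR, DESeq2 and limma-voom called 0, with 7 at an unadjusted p under 0.05, of which 6 were higher. On the 4 E11.5 libraries alone 1 was called higher.

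In the smooth muscle list 1 of 30 genes fell, 0 rose and 29 did not pass, with a median of -0.10 over all libraries and -0.22 without control replicate 1. The gene was Cnn1, which encodes the actin-binding protein calponin, at 14.3 and 13.1 CPM in mutants and 24.6 and 26.6 CPM in controls (-0.91, SE 0.13, adjusted p = 0.0119). With each library left out its adjusted p lay between 0.0840 and 0.125. Myh11, the smooth muscle myosin, had 28.0 and 27.2 CPM in mutants and 46.5 and 58.8 CPM in controls (-0.93, SE 0.25, adjusted p = 0.444) and was called by DESeq2 (0.0134) and on the 4 E11.5 libraries alone (0.000728). Myocd, the coactivator of contractile genes, had 23.0 and 21.8 CPM in mutants and 27.5 and 38.6 CPM in controls (-0.57, SE 0.19, adjusted p = 0.463), and Acta2 had 136 and 97.2 CPM in mutants and 149 and 191 CPM in controls (-0.55, SE 0.21, adjusted p = 0.682). For these 4 genes no mutant value reached a control value, a pattern on the lower side that 17.9% of all genes showed. It held for 12 of the 30 genes of the list, with the reverse in 3. Of the 30, 22 lay below 0 and 8 above. At an unadjusted p under 0.05 were 7, of which 6 were lower and 1 higher, where 7.54% of all genes had such a p.

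Rxfp1, Kcnk3 and Bves, set together here after the calls were seen, were lower. Rxfp1, the receptor for relaxin, had 18.4 and 13.9 CPM in mutants and 53.1 and 38.2 CPM in controls (-1.5, SE 0.18, adjusted p = 0.00338) and passed with each library left out. Kcnk3, a potassium channel that sets resting membrane potential, was the 1 channel called of 24, with 6.41 and 6.53 CPM in mutants and 13.6 and 15.3 CPM in controls (-1.16, SE 0.18, adjusted p = 0.0104). Bves, a membrane protein of striated and smooth muscle, had 12.01 and 11.02 CPM in mutants and 22.9 and 20.2 CPM in controls (-0.90, SE 0.16, adjusted p = 0.0204). With each library left out the adjusted p lay between 0.0645 and 0.0908 for Kcnk3 and between 0.0720 and 0.296 for Bves. Summed cardiac muscle genes, 13 of them tested, stood at 82.9 and 91.7 CPM in mutants and 87.2 and 126 CPM in controls. Summed skeletal muscle genes stood at 121 and 163 CPM in mutants and 85.2 and 117 CPM in controls. The cardiac list had a median of -0.62 (-0.85 without control replicate 1), with 10 below 0 and 3 above. In 10 of the 13 both mutants lay below both controls, with the reverse in 0. The 22 skeletal genes tested had a median of 0.71 (0.39 without control replicate 1), with 3 below 0 and 19 above. In 12 of the 22 both mutants lay above both controls, with the reverse in 1. Over all genes 17.9% had both mutants below and 18.1% had both above. EdgeR and limma-voom called 0 of both lists and DESeq2 called 1 cardiac gene, with 2 cardiac and 0 skeletal genes at an unadjusted p under 0.05. Their part in the values above was not tested.

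The neuropeptide gene Gal was lower. Gal, which encodes galanin, had 6.72 and 6.88 CPM in mutants and 21.5 and 16.5 CPM in controls (-1.48, SE 0.21, adjusted p = 0.00476). Both mutants lay well below both controls. Leaving out control replicate 1 gave Gal an adjusted p of 0.134, and leaving out mutant replicate 1 gave 0.0560.

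Of 43 axon guidance ligands and receptors 3 fell, 1 rose and 39 did not pass, with a median of 0.00, where 0.362% of all genes were called. Ntn1, the secreted cue netrin-1, was the higher one, with 42.7 and 41.3 CPM in mutants and 21.3 and 26.6 CPM in controls (0.81, SE 0.11, adjusted p = 0.00512). Unc5c, a receptor for netrin, was lower, with 332 and 308 CPM in mutants and 399 and 453 CPM in controls (-0.41, SE 0.07, adjusted p = 0.0119). Epha3, a receptor for ephrins, had 120 and 98.8 CPM in mutants and 218 and 213 CPM in controls (-0.99, SE 0.08, adjusted p = 7.34e-05). Sema5a, a semaphorin, had 152 and 129 CPM in mutants and 193 and 201 CPM in controls (-0.49, SE 0.08, adjusted p = 0.0243). All 4 had groups apart, and Epha3 passed with each library left out. Ntn1 reached only 0.0734 (adjusted p) on leaving out control replicate 1 and 0.0678 without mutant replicate 1, and Unc5c had 0.130 without control replicate 2 and 0.0783 without mutant replicate 2. Sema5a stood at 0.138 and 0.170 when control replicates 1 and 2 were left out and at 0.0830 when mutant replicate 2 was.

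Genes of neurons and glia lay higher in the same libraries. Of 33 tested 1 rose, 0 fell and 32 did not pass, with a median of 0.64 and 28 above 0. At an unadjusted p under 0.05 were 16, of which 15 were higher, where 7.54% of all genes had such a p. The summed level of the list was 648 and 440 CPM in mutants and 351 and 358 CPM in controls, so mutant replicate 1 was the highest. Dcx, the microtubule-binding doublecortin of young neurons, was the called one, with 47.5 and 36.7 CPM in mutants and 21.7 and 21.1 CPM in controls (0.97, SE 0.13, adjusted p = 0.00574). Without control replicates 1 and 2 its adjusted p was 0.0993 and 0.0832. The neurofilament gene Nefm, named after its values were seen, had 91.0 and 48.4 CPM in mutants and 26.7 and 28.8 CPM in controls (1.32, SE 0.35, adjusted p = 0.441), and the neuronal tubulin gene Tubb3 had 40.7 and 19.05 CPM in mutants and 15.8 and 15.2 CPM in controls (0.94, SE 0.42, adjusted p = 0.756). DESeq2 called 3 of the list higher and limma-voom 1.

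Basp1, Dbc1, Kctd12 and Celf2 were higher and are not on the neuronal list. Basp1, a protein of growth cones, had 184 and 196 CPM in mutants and 158 and 151 CPM in controls (0.30, SE 0.06, adjusted p = 0.0429). Dbc1, now named Brinp1 and known from the developing brain, had 27.7 and 25.7 CPM in mutants and 18.2 and 17.2 CPM in controls (0.59, SE 0.09, adjusted p = 0.0132). Kctd12, an auxiliary subunit of GABA-B receptors, had 193 and 176 CPM in mutants and 149 and 145 CPM in controls (0.33, SE 0.06, adjusted p = 0.0352), and Celf2, an RNA-binding splicing factor, had 102 and 100 CPM in mutants and 74.0 and 73.8 CPM in controls (0.45, SE 0.07, adjusted p = 0.0142). The part of the higher summed neuronal level in these values was not tested. With each library left out the adjusted p lay between 0.0618 and 0.349 for Basp1 and between 0.0605 and 0.170 for Celf2. Dbc1 had 0.0993, 0.130 and 0.0976 and Kctd12 had 0.230, 0.297 and 0.186 without control replicate 1, control replicate 2 and mutant replicate 1.

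The other higher genes were of mixed function. Iqgap2, a cytoskeletal scaffold, had 194 and 179 CPM in mutants and 110 and 108 CPM in controls (0.77, SE 0.09, adjusted p = 0.00423). Hlf, a leucine zipper transcription factor, had 32.6 and 26.4 CPM in mutants and 14.2 and 16.7 CPM in controls (0.93, SE 0.15, adjusted p = 0.0204). Apoe, a lipid carrier that macrophages and glia make, had 55.7 and 50.4 CPM in mutants and 28.7 and 37.5 CPM in controls (0.68, SE 0.11, adjusted p = 0.0204), beside 22 myeloid and other immune genes with a summed 265 and 210 CPM in mutants and 206 and 204 CPM in controls. The median of these immune genes was 0.30, with 19 above 0 and 3 below. Pawr, a promoter of apoptosis, was the 1 gene called of 22 growth arrest and apoptosis genes, with 29.1 and 32.4 CPM in mutants and 19.8 and 22.1 CPM in controls (0.55, SE 0.10, adjusted p = 0.0377). Adjusted p on leaving out control replicate 1 was 0.0800 for Iqgap2, 0.283 for Hlf, 0.112 for Apoe and 0.381 for Pawr. Without control replicate 2 it was 0.0640, 0.0720 and 0.0927 for Iqgap2, Hlf and Pawr, and without mutant replicate 1 it was 0.0582, 0.149, 0.177 and 0.0687 for Iqgap2, Hlf, Apoe and Pawr. Without mutant replicate 2 it was 0.0611 for Apoe and 0.216 for Pawr.

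The remaining lower genes fell into smaller groups. Of 19 imprinted and growth genes 2 fell, 0 rose and 17 did not pass, where 0.362% of all genes were called. The list's median was -0.14 (-0.09 without control replicate 1). Plagl1, an imprinted zinc-finger regulator of growth genes, had 381 and 361 CPM in mutants and 515 and 486 CPM in controls (-0.43, SE 0.06, adjusted p = 0.00338). Igf2r, the receptor that clears the growth factor Igf2, had 830 and 786 CPM in mutants and 1037 and 1080 CPM in controls (-0.39, SE 0.06, adjusted p = 0.0119). Igf2 itself had 3558 and 3527 CPM in mutants and 3947 and 3886 CPM in controls (-0.14, SE 0.05, adjusted p = 0.463), with groups apart. Plagl1 missed the threshold on leaving out control replicate 1 (adjusted p = 0.0800), and Igf2r stood at 0.0993 and 0.131 when control replicates 1 and 2 were left out and at 0.0559 when mutant replicate 2 was.

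Tanc1, Sncaip, Tmem132c, Lgi3 and Sdk2 were also lower. Tanc1, a scaffold of synapses, had 84.8 and 71.5 CPM in mutants and 134 and 137 CPM in controls (-0.80, SE 0.08, adjusted p = 0.000356). Sncaip, the gene of synphilin-1, had 42.4 and 37.7 CPM in mutants and 63.4 and 64.8 CPM in controls (-0.68, SE 0.08, adjusted p = 0.00274). Tmem132c, a membrane protein of little known function, had 125 and 122 CPM in mutants and 177 and 184 CPM in controls (-0.55, SE 0.07, adjusted p = 0.00338). These 3 passed with each library left out. Lgi3, a secreted leucine-rich protein, had 6.11 and 6.53 CPM in mutants and 12.99 and 12.4 CPM in controls (-1.01, SE 0.19, adjusted p = 0.0453), and the adhesion gene Sdk2 had a log2 value of -0.52 (adjusted p = 0.0485). With each library left out these 2 lay between 0.176 and 0.315 and between 0.0993 and 0.334.

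The other 5 lower genes are given by their log2 values. Me1, the cytosolic malic enzyme, stood at -0.60 (SE 0.09, adjusted p = 0.00893) and Stbd1, a glycogen-binding protein, at -0.59 (SE 0.08, adjusted p = 0.00338). Trp53i11, a p53-inducible gene, stood at -0.50 (SE 0.08, adjusted p = 0.0119), the transcription factor gene Ets2 at -0.40 (SE 0.06, adjusted p = 0.0102) and Mtss1l, now named Mtss2, at -0.34 (SE 0.06, adjusted p = 0.0376). Adjusted p on leaving out control replicate 1 was 0.114, 0.0622, 0.0681 and 0.130 for Me1, Stbd1, Trp53i11 and Ets2. Without mutant replicate 2 it was 0.0693, 0.0579 and 0.151 for Me1, Ets2 and Mtss1l, without mutant replicate 1 it was 0.109, 0.0602 and 0.150 for Trp53i11, Ets2 and Mtss1l, and without control replicate 2 it was 0.124 and 0.321 for Trp53i11 and Mtss1l.

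Several signalling pathways and cell types gave no call at E11.5 in edgeR. Since 0.362% of all genes were called, a list of this size would mostly hold 0, which says little about the list. In the hedgehog pathway 0 of 16 passed, with 6 at an unadjusted p under 0.05, of which 5 were lower. Such a p was found for 7.54% of all genes. DESeq2 called 1 of the 16 lower, limma-voom 0, and the fit on the 4 E11.5 libraries alone 2 lower. The list's median was -0.07, and the readout Gli1 had 125 and 122 CPM in mutants and 124 and 137 CPM in controls. In the FGF list 0 of 24 passed, with 4 at an unadjusted p under 0.05, all higher, and 0 by DESeq2 or limma-voom, and Fgf10 had 12.8 and 11.02 CPM in mutants and 9.31 and 9.01 CPM in controls (0.38, SE 0.15, adjusted p = 0.530). Of 19 Notch, 18 retinoic acid and 16 Hox genes edgeR, DESeq2 and limma-voom called 0 each, with 1, 3 and 2 at an unadjusted p under 0.05. Of 30 cell cycle genes they called 0 and 0 had an unadjusted p under 0.05, with a median of 0.02, and Mki67 had 766 and 715 CPM in mutants and 764 and 790 CPM in controls. On the 4 E11.5 libraries alone 1 gene was called higher in each of the FGF, retinoic acid and Hox lists.

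The epithelium, in which the Cre acts, was also without a call, where 0.362% of all genes had one. Of 28 epithelial transcription factors and 39 structural epithelial genes edgeR, DESeq2 and limma-voom called 0, with 6 and 8 at an unadjusted p under 0.05, of which 5 and 8 were higher. The medians were 0.02 and 0.06 over all libraries, and 0.28 and 0.25 without control replicate 1. Nkx2-1 stood at 0.28 (SE 0.09, adjusted p = 0.366), the foregut factor Sox2 at 0.32 (SE 0.13, adjusted p = 0.610) and Epcam at 0.21 (SE 0.08, adjusted p = 0.441). In each of them both mutants lay above both controls, a pattern that 18.1% of all genes showed. It held for 5 of the 28 factors and 13 of the 39 structural genes, and the reverse for 3 and 6. Below 0 lay 13 of the factors and 17 of the structural genes. The summed structural genes were at 944 and 1040 CPM in mutants and 1000 and 871 CPM in controls, with overlap. The same tools called 0 of 25 endothelial genes, with 1 at an unadjusted p under 0.05, and 0 of 22 immune genes, with 8, all higher. They called 0 of 20 erythroid genes, with 8 at an unadjusted p under 0.05 and all 20 below 0 (median -0.69), and their summed level was 6454 and 3718 CPM in mutants and 6295 and 9942 CPM in controls. Intestine genes had a median of 0.37 (0.56 without control replicate 1) with 0 of 26 called by these tools and 7 at an unadjusted p under 0.05, at 228 and 213 CPM in mutants and 177 and 158 CPM in controls. Of 18 mesothelium and pericyte genes, 6 thyroid, parathyroid and thymus genes and 23 immediate early and heat shock genes these tools also called 0, with 4, 2 and 0 at an unadjusted p under 0.05. The fit on the 4 E11.5 libraries alone called 1 epithelial factor, 1 intestine gene and 1 mesothelium or pericyte gene higher and 1 erythroid gene lower. The part of these cell types in the results above was not tested.

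Most of the lower genes were lower again 2 days later. Of the 43, 33 were also called lower at E13.5, which is 76.7% of them and 3.81% of the 866 genes called lower at that stage, where 5.81% of all genes were. Their E13.5 values come from other libraries, although the spread is estimated over all 8. Of the other 10, 7 were not called and 3 were called higher. Notum had 2.20 and 2.63 CPM in E13.5 mutants and 17.2 and 17.99 CPM in E13.5 controls (-2.86, SE 0.20, adjusted p = 1.13e-06). Lef1 and Axin2 had E13.5 values of -0.86 and -0.46 (adjusted p = 0.00121 and 0.0109), and the 4 T-box genes had values from -1.75 for Tbx4 to -1.37 for Tbx5. Of the 11 higher genes 4 were called higher at E13.5 (36.4% of them and 0.450% of the 889 called higher, where 5.97% of all genes were), among them Ntn1, Iqgap2 and Celf2, and 7 were not called.

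**Figure D5:**
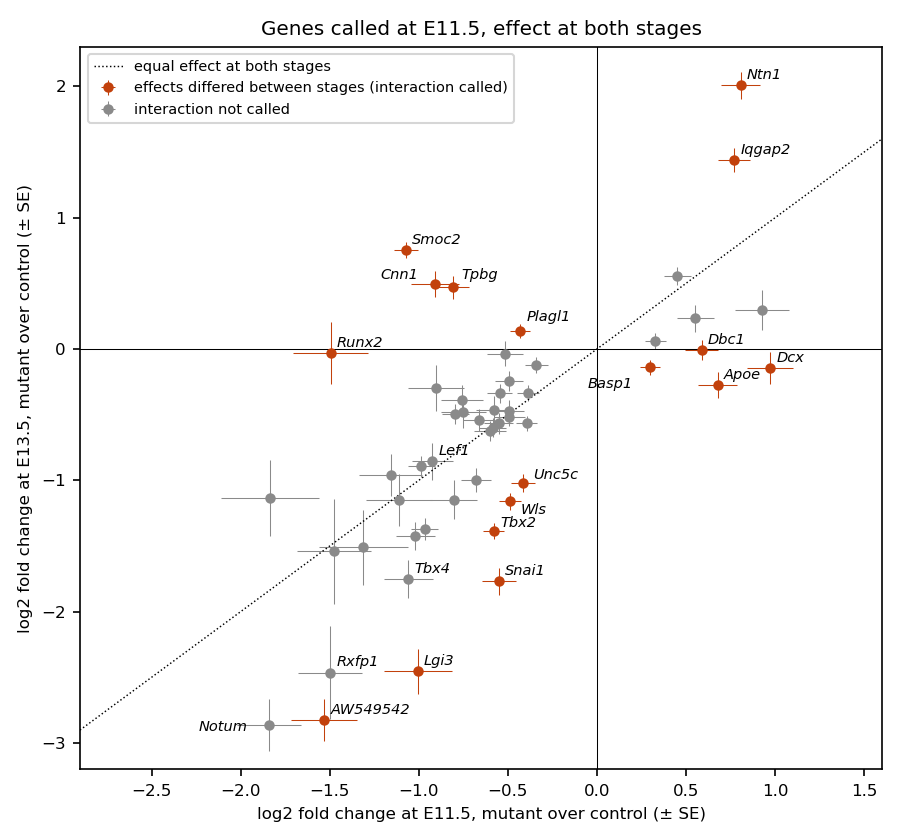
Log2 fold change of mutant over control at E11.5 (horizontal axis) and at E13.5 (vertical axis) for 52 genes called at E11.5, with standard errors as bars. Genes on the dotted line have equal effects, and the 17 whose effects differed between stages by the interaction test are orange, with Smoc2, Cnn1 and Tpbg in the upper left, lower at E11.5 and higher at E13.5.

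The effect differed between the stages for 17 of the 54 genes by the test of the interaction, which 3.34% of all genes passed. In 8 of them it was larger at E13.5: AW549542, Lgi3, Tbx2, Snai1, Wls and Unc5c among the lower genes, and Iqgap2 and Ntn1 among the higher. In the other 9 it was smaller or opposite. Smoc2 had 220 and 213 CPM in E13.5 mutants and 120 and 137 CPM in E13.5 controls, so its E13.5 value was 0.75 (SE 0.06, adjusted p = 6.56e-06) beside -1.07 at E11.5. Cnn1 had 95.9 and 120 CPM in E13.5 mutants and 73.8 and 79.3 CPM in E13.5 controls, and an E13.5 value of 0.50 (SE 0.10, adjusted p = 0.00630). Tpbg had 46.7 and 47.2 CPM in E13.5 mutants and 32.2 and 35.6 CPM in E13.5 controls, and an E13.5 value of 0.47 (SE 0.09, adjusted p = 0.00320). For Runx2 the E13.5 value was -0.03 (SE 0.24, adjusted p = 0.962), with 4.78 and 3.45 CPM in E13.5 mutants and 3.93 and 4.499 CPM in E13.5 controls. Dcx had an E13.5 value of -0.15 (SE 0.12, adjusted p = 0.519) beside 0.97 at E11.5.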

How the data were processed

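RNA sequencing of dissected mouse trachea was analysed in 8 libraries, 2 for each genotype at E11.5 and E13.5. Per the file headers, the authors deposited 2 values per gene and library, named raw counts and read density. The deposited counts are estimated counts, since 76.3% to 82.6% of values above 0 per library are not whole. The deposited read density was found from its values to be RPKM, scaled to its own column, and served only to compare levels between genes. The submitters' processing notes name build mm9, DESeq, Cufflinks 2.0.2, TopHat2 2.0.8 and Bowtie2 2.1.0. The counting tool and gene models were not given in the sources used here.

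Estimated counts were summed over entries with the same symbol (239 symbols had more than 1), rounded to whole numbers, and entries naming no gene, at most 0.0253% of a library, were left out. edgeR 4.0.16 in R 4.3.3 filtered genes with filterByExpr, scaled libraries by TMM and fitted a robust quasi-likelihood model with 1 mean per group to all 8 libraries (4 residual degrees of freedom). CPM use TMM-scaled library sizes and the standard error is the log2 change divided by the root of F. P-values were adjusted by Benjamini-Hochberg over all 14901 genes. Alternatives were DESeq2 1.42.0, limma-voom (limma 3.58.1), other scaling, no low-count filter, no robust dispersion, the 4 E11.5 libraries alone, a replicate block and leaving out libraries. The design had assumed whole counts, and rounding was the only change. Scripts were tested on simulated data.

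Depth of 9.90 to 18.5 M counts per library limits precision for genes of a few counts, and reads carry no molecular identifiers. Replicates differed by more than sampling noise (chi-square per degree of freedom 3.45 to 8.63), so none was treated as a copy. Every called gene could be named, except 2 that are not reported here and stay in the counts only; of genes not called, Wls, Porcn, Shh and up to 6 abundant or defining members per list, plus those marked in the text as named after their values were seen, among them the 4 genes that flank the T-box pairs. The genes, lists and comparisons were chosen with earlier results of these data known. Of 54 called genes, all matched the RefSeq table by gene ID.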

Additional observations from a re-analysis of the deposited data

Results flagged for a closer look

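For 17 of the genes called at E11.5 the genotype effect differed between the stages by the interaction test in edgeR (adjusted p under 0.05). The value given is the log2 effect at E13.5 minus that at E11.5, each effect being mutant over control.

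Effects that were more negative at E13.5 gave -1.30 for AW549542, -1.45 for Lgi3, -0.81 for Tbx2, -1.22 for Snai1, -0.67 for Wls and -0.60 for Unc5c. Lower genes whose effect was weaker or turned upward gave 1.47 for Runx2, 1.83 for Smoc2, 1.41 for Cnn1, 1.28 for Tpbg and 0.57 for Plagl1. Among genes higher at E11.5, the effect grew for Iqgap2 (0.67) and Ntn1 (1.20), and it was near 0 or below at E13.5 for Basp1 (-0.44), Dbc1 (-0.60), Apoe (-0.95) and Dcx (-1.12).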

How the results depend on the processing

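The E11.5 count of 54 called genes (11 higher and 43 lower) depended on the fit. It was 95 with DESeq2 (29 higher, 66 lower), 29 with limma-voom (3 and 26), 92 with no low-count filter (31 and 61), 120 on the 4 E11.5 libraries alone (37 and 83) and 98 without both E13.5 mutant libraries (30 and 68). With no robust dispersion 6 were higher and 34 lower. Leaving out 1 E11.5 or E13.5 library in turn gave 20 to 100 genes, 2 to 49 higher and 18 to 69 lower; leaving out E13.5 libraries was an alternative chosen after seeing the data, and gave 98 and 100 without E13.5 mutant replicates 1 and 2. With relative log expression scaling it was 56, and no scaling moved the median of all genes by over 0.1. The Wls value kept its direction and its call under each of these (-0.54 to -0.43). The counts of E11.5 genes called the same way at E13.5 (32 to 37) and with a called interaction (13 to 21) kept within 1.5 times under each.

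The labels do not say whether same-numbered mutants and controls were paired. Their deviations had a correlation of -0.01 across 10727 genes, which cannot exclude a pairing that moved few genes. A fit with the replicate block called 90 genes, 23 higher and 67 lower.

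Values that changed sign belong to genes that were not called. Leaving out 1 library in turn gave -0.11 to 0.24 for Porcn, -0.62 to 0.17 for Shh, -0.10 to 0.048 for Wnt5a, -0.064 to 0.12 for Wnt5b, -0.00531 to 0.20 for Wnt7b at E11.5, -0.26 to 0.00326 for Med13l at E11.5 and -0.15 to 0.027 for Brip1. The cause of these shifts was not tested.

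With 2 libraries a group, a gene lost when 1 is left out is not shown to have a weaker effect, and with that library gone the lone sample is assumed to vary like the other groups. Genes such as Msx1, with 20 counts in each mutant library, are limited by depth. Mix of sexes cannot be told apart from genotype, and cell types from level per cell.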
